A study of Mus musculus with 8 samples.

Results

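Growing axons are built from a small set of proteins. Growth cone proteins act at the membrane and on the free tubulin at the axon tip, neuronal tubulins and microtubule-associated proteins form and steady the tracks behind it, and neurofilament-type proteins fill the shaft. Small cell lung cancer is a neuroendocrine tumour whose cells carry many transcripts of the neuronal lineage, and it often spreads to the brain. Here 7 genes of this kind, chosen by symbol, were followed among the 22056 genes of the deposited tables: Gap43 and Stmn2 of the growth cone, the RNA-binding protein gene Elavl4, the tubulin gene Tubb3, the microtubule-associated protein genes Dcx and Map2, and the intermediate filament gene Ina. All 7 were in the tables and all 7 passed the filter on low counts. They were measured in 34719 tumour cells of 38460 deposited cells, where a tumour cell was one with at least 0.2% of its transcripts from the eGFP reporter and Mycl.

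The cells came from allografts of N2N1G, a mouse small cell lung cancer line, profiled by droplet-based 3' RNA sequencing with unique molecular identifiers (UMIs), each of which marks 1 captured transcript. The brain group held 2 allografts placed by direct injection, the liver group 3 allografts seeded through the tail vein, and the subcutaneous group 3 allografts injected directly under the skin. Each had been started with the same number of cultured cells and was taken after 3 weeks, and viable cells were sorted before the libraries were made. In the liver comparisons the site and the route of the cells cannot be told apart, 1 cell line stands behind every group, and the strain, sex and age of the hosts are not given in the sources used here. The labels number the allografts without stating that each came from its own mouse, so the p-values of the site comparisons measure the spread between allografts. Those of the cell class comparisons below, made within libraries, rest largely on a spread shared over genes.

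Tumour cells numbered 2418 and 4060 in the brain libraries, 4114 to 4720 in liver and 4150 to 6276 in subcutaneous libraries, with 21689091 to 62047017 UMIs per library and median depths of 7971.5 to 10542 UMIs per cell. Any 2 libraries shared at most 56 cell barcodes. Of the listed tumour markers, Chga, which encodes the neuroendocrine granule protein chromogranin A, was at 383 to 669 CPM (UMI counts scaled to the library's total) in the tumour cells of the 8 libraries and at 30.9 to 486 CPM in the remaining cells. The epithelial adhesion gene Epcam was at 489.6 to 990.2 CPM in tumour cells and at 41.8 to 627 CPM in the remaining cells. The rule left 430 cells just under it (0.1% to 0.2%) and took in 2239 just above it (0.2% to 0.4%). Summed markers of myeloid cells, oligodendrocytes and astrocytes were higher in the tumour cells of both brain libraries than in those of any other library. The sum of host neuron markers overlapped. The 13 myeloid markers summed to 129 and 583 CPM in brain against 1.02 to 78.9 CPM in the other libraries, the 8 oligodendrocyte markers to 199 and 264 CPM against 61.7 to 75.3 CPM, the 6 astrocyte markers to 63.6 and 85.4 CPM against 17.4 to 42.0 CPM, and the 10 markers of host neurons to 39.7 and 50.7 CPM against 27.0 to 46.2 CPM, the last in subcutaneous replicate 1. Markers of red cells and of fibroblasts or pericytes were not higher in brain: they reached 837 CPM in liver replicate 2 and 24.9 CPM in subcutaneous replicate 1, against at most 11.2 CPM and 1.43 CPM in brain. Of the neuron markers, Slc17a7 had a UMI in 0.386% of tumour cells in brain and Slc17a6 in 0.0309%, while in liver Neurod6, Slc17a6 and Slc32a1 had none. Subcutaneous replicate 1 stood apart from the other subcutaneous libraries: cells with a UMI of Tfap2a, an epithelial and neural crest transcription factor, made up 18.7% of its tumour cells at equal depth, against 3.93% and 4.53% in the others, and cells with a UMI of the homeobox gene En1 made up 3.49% against 0.524% and 0.614%. Site comparisons of the 7 genes are given without this library where that changes a call, and the class comparisons called are given without it as well.

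Levels are CPM of all UMIs summed over the tumour cells of a library. Sites were compared with edgeR's quasi-likelihood test over 13931 genes in 1 fit of all 8 libraries, and a gene was called at a Benjamini-Hochberg adjusted p under 0.05. In brain against liver 2 of the 7 genes were called, both higher in brain, where 21.8% of all genes were called, 13.2% higher and 8.56% lower. In brain against subcutaneous 1 of 7 was called, higher in brain, where 15.1% of all genes were called, 8.94% higher and 6.13% lower. In liver against subcutaneous 1 of 7 was called, lower in liver, where 2.83% of all genes were called, 0.933% higher and 1.9% lower. The median log2 fold change of the 7 was 0.09, 0.15 and -0.04 in these comparisons, and that of all genes 0.00, 0.00 and -0.01. The libraries of brain and liver did not overlap for 5 of 7 genes, 3 of them with brain above and 2 with brain below, where this held for 53.2% of all genes, 36.1% with brain above and 17.1% with brain below. Brain and subcutaneous libraries did not overlap for 2 of 7 genes, 1 above and 1 below, beside 46.8% of all genes (24.5% above and 22.3% below). Liver libraries lay below all subcutaneous libraries for 2 of 7 genes and above for 0, beside 21.7% and 5.99% of all genes, together 27.7%. The 3 comparisons share libraries, so their fold changes are not independent of each other.

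**Figure D1:**
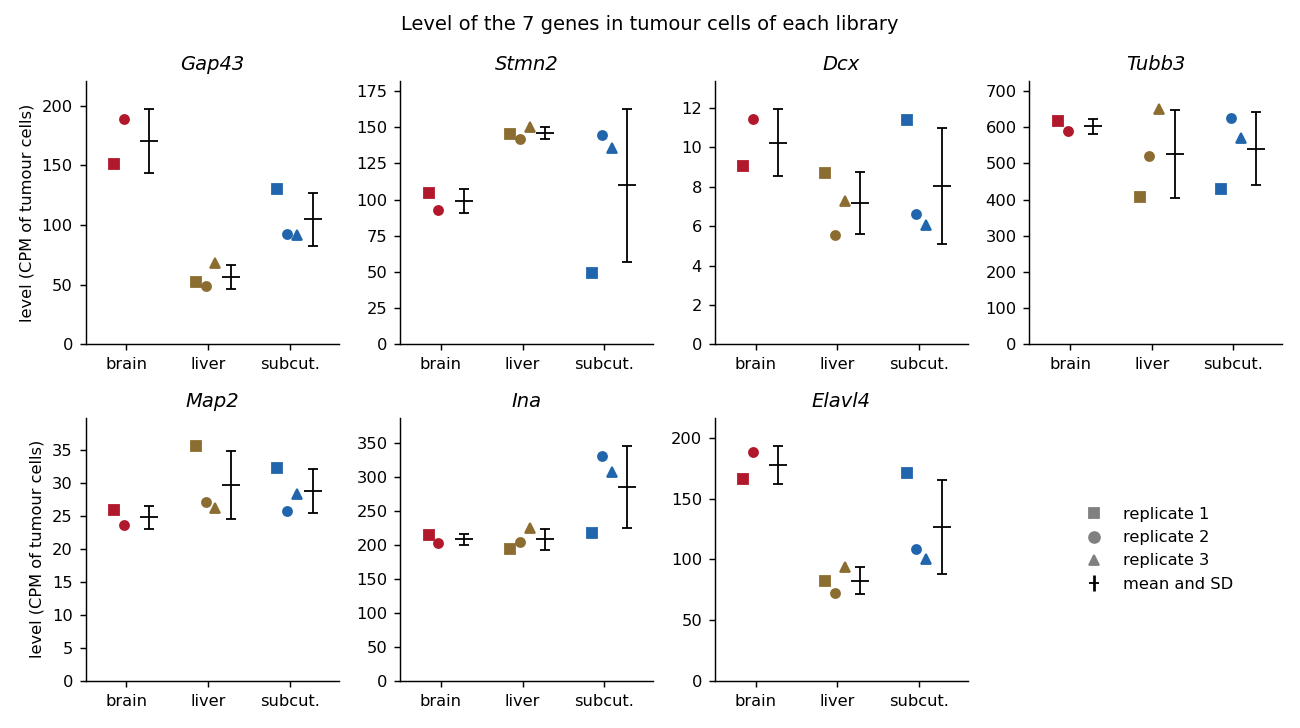
Level of each gene in the tumour cells of every library (y axes, CPM, from 0), by site (x axis), with squares, circles and triangles for replicates 1, 2 and 3 and a bar for the mean and SD. Gap43 lies at 49.2 to 67.7 CPM in liver and at 151 and 189 CPM in brain, Elavl4 has the same order of sites, and subcutaneous replicate 1 is apart from the other subcutaneous libraries for Gap43, Elavl4, Stmn2 and Ina.

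Gap43 encodes a membrane-bound phosphoprotein of the growth cone that binds calmodulin, and of the 7 genes it had the widest range over the libraries, with 3.85-fold between the highest and the lowest. The gene (ENSMUSG00000047261) lies on the minus strand at chr16:42248442-42340651 of GRCm38. Its level was 151 and 189 CPM in brain, 52.3, 49.2 and 67.7 CPM in liver, and 130.3, 92.6 and 91.4 CPM in subcutaneous libraries. Both brain libraries lay above all others and all liver libraries below all others, so the order was brain, then subcutaneous, then liver with no overlap. In the same order the means were 170.3 ± 26.9 CPM (SD, n = 2), 105 ± 22.1 CPM (SD, n = 3) and 56.4 ± 9.91 CPM (SD, n = 3). Brain was 2.80-fold above liver (log2 fold change 1.48, SE 0.19, edgeR adjusted p = 0.00164), and this call held in 23 of 23 alternative analyses. Brain was 1.63-fold above subcutaneous (0.70, SE 0.19, adjusted p = 0.0355) and liver 1.72-fold below subcutaneous (-0.78, SE 0.17, adjusted p = 0.0456). These last calls were close to the threshold. In brain against subcutaneous the call was lost without brain replicate 1 (0.87, adjusted p = 0.0834), brain replicate 2 (0.53, 0.212), liver replicate 1 (0.70, 0.0567), liver replicate 2 (0.69, 0.0575), subcutaneous replicate 2 (0.64, 0.106) or subcutaneous replicate 3 (0.62, 0.111), and without subcutaneous replicate 1 it was kept at 0.89 (adjusted p = 0.00157). In liver against subcutaneous it was kept only when subcutaneous replicate 1 was the library left out (-0.60, adjusted p = 0.0292), and without another library the log2 fold change was -0.69 to -0.91 with an adjusted p of 0.0525 to 0.231. With tumour cells that held a UMI of a host marker left out, the 3 log2 fold changes of Gap43 were 1.46, 0.68 and -0.78, all still called. That step kept only 305 of 2418 tumour cells in brain replicate 1 and 1727 of 4060 in brain replicate 2. It kept 3368 of 4114, 3341 of 4189 and 4031 of 4720 in liver. In subcutaneous libraries it kept 2798 of 4150, 5387 of 6276 and 3996 of 4792.

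Stmn2 encodes a neuronal stathmin, a membrane-anchored protein of the growth cone that binds tubulin dimers and keeps microtubules dynamic. The gene (ENSMUSG00000027500, plus strand, chr3:8509360-8561606) stood at 105 and 92.9 CPM in brain, at 145, 142 and 150.4 CPM in liver, and at 49.3, 145 and 135 CPM in subcutaneous libraries. The liver libraries were close together and above both brain libraries. Subcutaneous replicate 1 was the lowest of all 8, far below the other subcutaneous libraries, so the subcutaneous mean of 110 ± 52.6 CPM (SD, n = 3) describes none of its libraries. No comparison was called: the log2 fold change was -0.68 for brain against liver (95% interval -1.59 to 0.23), -0.16 for brain against subcutaneous (-1.05 to 0.74) and 0.52 for liver against subcutaneous (-0.28 to 1.32). Without subcutaneous replicate 1, whose spread enters every comparison of the fit, brain was below liver by nearly the same amount but called (-0.68, edgeR adjusted p = 0.00032), and brain was also called below subcutaneous (-0.51, adjusted p = 0.00284), while liver against subcutaneous was not (0.17, adjusted p = 0.254). With only the brain and liver libraries in the fit, brain was called below liver too (-0.68, adjusted p = 0.00106). The gene most like Stmn2 over the 8 libraries was Fev, which encodes a transcription factor of serotonergic neurons (Pearson r = 0.98 of log2(CPM + 1)), followed by Arhgef19 (r = 0.96). Fev was at 77.5 and 77.4 CPM in brain, at 94.3 to 101 CPM in liver and at 55.0, 100.2 and 102 CPM in subcutaneous libraries.

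Elavl4 encodes HuD, a neuronal RNA-binding protein that stabilises messages with AU-rich elements, among them that of Gap43. The gene (ENSMUSG00000028546) lies on the minus strand at chr4:110203722-110351909. RefSeq windows of 250 bases before a start site (GRCm38.p6) were at hand for 5 of the 7 genes, Dcx, Tubb3, Map2, Ina and Elavl4. They were searched on both strands for CAGCTG and CAGATG, the E-box forms bound by neuronal basic helix-loop-helix factors such as Neurod1, for TGACG, the core of the cyclic AMP response element, and for CCGCCC, the core of an Sp1 site. Of 32851 windows of this length, 13.0% held CAGCTG, 14.4% CAGATG, 17.8% TGACG and 32.7% CCGCCC. Shown here are 2 of the 4 Elavl4 windows, since this gene differed between sites and tumour cell classes, and the Ina window, whose gene did so less, all 3 outside annotated exons, with matches to any of these motifs in capitals. They are at chr4:110351912-110352161 (minus strand), chr4:110287528-110287777 (minus strand) and chr19:47014431-47014680 (plus strand).
Elavl4 upstream start: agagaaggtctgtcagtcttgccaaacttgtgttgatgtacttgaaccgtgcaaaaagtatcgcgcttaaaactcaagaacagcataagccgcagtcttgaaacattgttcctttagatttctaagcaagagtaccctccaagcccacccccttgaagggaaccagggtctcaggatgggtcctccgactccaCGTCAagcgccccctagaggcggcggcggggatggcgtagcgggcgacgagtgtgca
Elavl4 internal start: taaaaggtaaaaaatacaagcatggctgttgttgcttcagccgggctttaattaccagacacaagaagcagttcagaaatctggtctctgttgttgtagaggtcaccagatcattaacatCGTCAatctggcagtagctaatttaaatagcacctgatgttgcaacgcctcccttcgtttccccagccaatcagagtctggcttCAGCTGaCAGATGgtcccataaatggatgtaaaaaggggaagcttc
Ina start: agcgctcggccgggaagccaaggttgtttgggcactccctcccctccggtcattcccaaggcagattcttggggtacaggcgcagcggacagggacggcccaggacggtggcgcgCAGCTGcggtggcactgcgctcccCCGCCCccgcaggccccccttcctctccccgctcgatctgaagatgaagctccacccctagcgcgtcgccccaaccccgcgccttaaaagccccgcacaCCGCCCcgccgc
The upstream Elavl4 window held 1 TGACG motif and no other. The internal window held 1 CAGCTG and 1 CAGATG motif with a single base between them, and 1 TGACG motif, and another Elavl4 window that overlaps it also holds 1 of each. Ina had 1 CAGCTG and 2 CCGCCC motifs. Map2 had 5 CCGCCC motifs and Tubb3 had 2, with no match to the other motifs, and the 2 overlapping Dcx windows held none of the 4 motifs. The last Elavl4 window had 1 CAGATG motif. A match describes these letters and is no evidence of binding.

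The level of Elavl4 was 166 and 189 CPM in brain, 82.3, 72.0 and 93.5 CPM in liver, and 171, 109 and 100.4 CPM in subcutaneous libraries. Both brain libraries lay above all liver libraries, all subcutaneous libraries lay above liver too, and subcutaneous replicate 1 lay between the brain libraries. Brain libraries averaged 178 ± 15.7 CPM (SD, n = 2), subcutaneous libraries 127 ± 38.5 CPM (SD, n = 3), and liver libraries 82.6 ± 10.8 CPM (SD, n = 3). Brain was 1.99-fold above liver (log2 fold change 0.99, SE 0.21, edgeR adjusted p = 0.0115). This call was lost without brain replicate 2 (0.90, adjusted p = 0.0778) or liver replicate 2 (0.89, adjusted p = 0.0526) and was kept in the other 21 of 23 alternatives. Brain and subcutaneous were neighbours in this order that did not pass the test (0.49, 95% interval 0.01 to 0.96 before adjustment, adjusted p = 0.149), nor did liver against subcutaneous (-0.51, -0.94 to -0.08, adjusted p = 0.199). Without subcutaneous replicate 1, brain was above subcutaneous by 0.76 (adjusted p = 0.0013), and liver against subcutaneous was -0.23 (adjusted p = 0.238). Lpl and Thra, which encode lipoprotein lipase and a thyroid hormone receptor, were the genes most like Elavl4 over the 8 libraries (r = 0.99 for both). Ing3 and Ccdc88a were most like Gap43 (r = 0.99 for both). These correlations were the highest of 7936 genes and rest on 8 libraries of 3 sites.

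**Figure D2:**
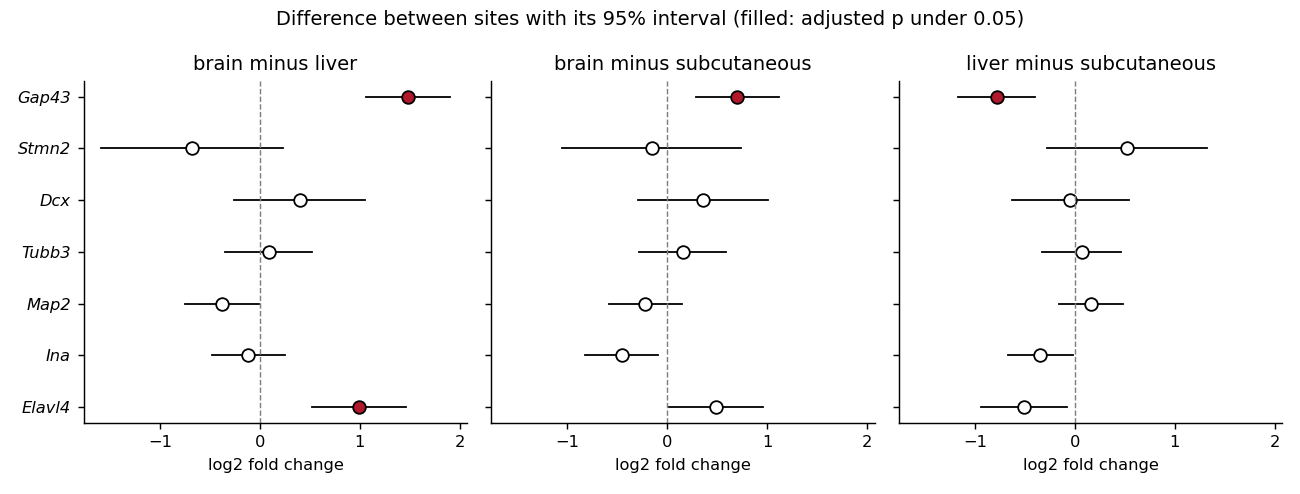
Log2 fold change of each gene between 2 sites (x axis) with its 95% interval before adjustment, filled where the edgeR adjusted p was under 0.05. Gap43 is filled in all 3 panels and Elavl4 in brain minus liver at 0.99, and the intervals of Stmn2 are the widest, from -1.59 to 0.23 in brain minus liver.

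Tubb3, Dcx and Map2 belong to the microtubules, and no site comparison of theirs was called. Tubb3 encodes the class III beta-tubulin of neurons and stood at 618 and 589 CPM in brain, at 406, 522 and 650.1 CPM in liver, and at 429, 624.5 and 569 CPM in subcutaneous libraries. The lowest were liver replicate 1 and subcutaneous replicate 1, and the brain libraries lay inside the range of either other site. Its log2 fold changes were 0.09 (95% interval -0.35 to 0.53) for brain against liver, 0.15 (-0.28 to 0.59) for brain against subcutaneous and 0.07 (-0.32 to 0.46) for liver against subcutaneous. Tubb3 (ENSMUSG00000062380, chr8:123411424-123422015) lies inside the span of the gene model Gm20388 on the same strand, so part of its reads could be assigned elsewhere. Map2, the microtubule-associated protein of dendrites (ENSMUSG00000015222, chr1:66175273-66442583), was at 26.0 and 23.6 CPM in brain, 35.7, 27.2 and 26.3 CPM in liver, and 32.4, 25.7 and 28.3 CPM in subcutaneous libraries. Both brain libraries were below all liver libraries, by 0.38 on the log2 scale (-0.75 to -0.01, edgeR adjusted p = 0.128). Dcx encodes doublecortin, the microtubule-associated protein of migrating immature neurons (ENSMUSG00000031285, chrX:143855842-143933311). It was the most sparsely counted of the 7, with 196 to 476 UMIs per library, at 9.04 and 11.4 CPM in brain, 8.71, 5.56 and 7.27 CPM in liver, and 11.4, 6.61 and 6.07 CPM in subcutaneous libraries. Both brain libraries lay above liver (0.40, -0.25 to 1.06, adjusted p = 0.354), and subcutaneous replicate 1 was again level with brain. Without that library, brain was above subcutaneous by 0.70 for Dcx (adjusted p = 0.0283) and by 0.01 for Tubb3 (adjusted p = 0.958).

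Ina encodes alpha-internexin, a neuronal intermediate filament protein that is made early in axon outgrowth (ENSMUSG00000034336, chr19:47014698-47025327). Its level was 214 and 202 CPM in brain, 194, 204 and 225 CPM in liver, and 217, 331 and 307 CPM in subcutaneous libraries. Subcutaneous replicates 2 and 3 were above all other libraries, while subcutaneous replicate 1 was among the liver and brain values. Both brain libraries were below all subcutaneous libraries, by 0.46 on the log2 scale (SE 0.16, 95% interval -0.82 to -0.09, edgeR adjusted p = 0.0903), and brain and liver were level (-0.11, -0.48 to 0.25). Without subcutaneous replicate 1, Ina was called lower in brain than in subcutaneous (-0.62, adjusted p = 0.000939) and lower in liver than in subcutaneous (-0.51, adjusted p = 0.00936). Bcat1 and Sc5d, an amino acid transaminase gene and a sterol desaturase gene, were most like Ina over the libraries (r = 1.00 and 0.99). For the microtubule genes these were Hnrnph2 and Adk with Tubb3 (r = 0.99 for both), Ppfia1 and Atrn with Map2 (r = 0.97 for both), and Tcerg1l and Snrk with Dcx (r = 0.96 for both).

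To see how the transcripts were spread over cells at equal depth, 3000 UMIs were drawn from each tumour cell, and the 970 cells with fewer UMIs (48 to 180 per library) were not used. A UMI of Gap43 was then found in 32.2% and 37.3% of cells in brain, in 14.1% to 15.8% in liver and in 22.4% to 30.5% in subcutaneous libraries, the same order of sites as in CPM. For Elavl4 the shares were 33.7% and 37.6% in brain, 17.0% to 22.1% in liver and 22.7% to 35.9% in subcutaneous libraries. Stmn2 was found in 15.4% and 20.2% of cells in brain, in 28.2% to 29.2% in liver, and in 8.41%, 24.8% and 25.2% in subcutaneous libraries, the lowest again in replicate 1. Tubb3 was found in 64.1% to 79.8% of cells across the libraries, Ina in 43.2% to 59.5%, Map2 in 6.43% to 9.40% and Dcx in 1.47% to 3.64%. Without thinning the mean share was 62.4%, 38.3% and 53.0% for Gap43 in brain, liver and subcutaneous libraries, 61.2%, 47.2% and 54.1% for Elavl4, and 29.0%, 50.04% and 32.6% for Stmn2. As a measure of free RNA, thinned myeloid cells, which should lack these genes, had a UMI of Tubb3 in 6.005% of 866 cells, of Gap43 in 1.85%, of Elavl4 in 1.27%, of Ina in 1.15%, of Stmn2 in 0.924%, of Map2 in 0.577% and of Dcx in 0%. The count of 0 for Dcx allows a share of up to 0.346%. The median depth of these 866 cells before thinning was 5794 UMIs, against 9696 UMIs in the thinned tumour cells. By site, 745 of them were from brain, 91 from subcutaneous and 30 from liver libraries, so the pooled shares mainly describe brain. In liver, Stmn2 had a UMI in 2 of 20 such cells of replicate 2, 0 of 4 of replicate 1 and 0 of 6 of replicate 3. These are too few to give the free RNA of liver.

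**Figure D3:**
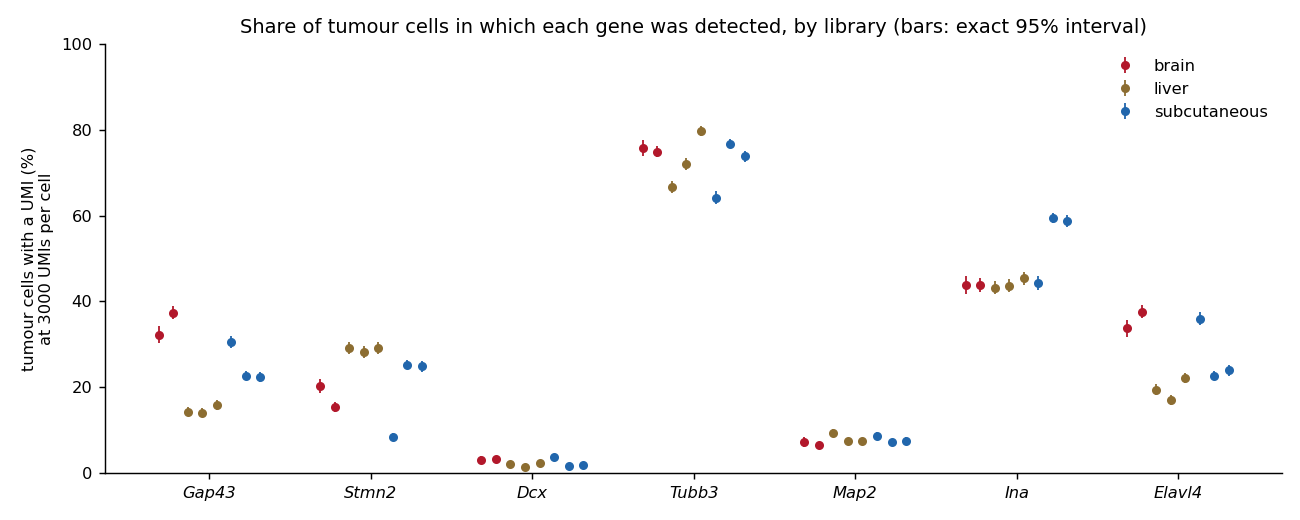
Percent of tumour cells with a UMI of each gene after thinning to 3000 UMIs per cell (y axis), 1 point per library coloured by site, with exact binomial 95% intervals that cover counting error only. The brain points of Gap43 (32.2% and 37.3%) are above all others, and the Stmn2 point of subcutaneous replicate 1 (8.41%) is the lowest of its 8.

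The variance over the mean of the thinned counts was highest for Stmn2 of the 7 genes in 8 of 8 libraries. This ratio was 1.58 to 2.25, where a value of 1 is what random sampling of equal cells gives for Stmn2, and it was highest in subcutaneous replicate 1. Tubb3 had ratios of 1.39 to 1.63, Elavl4 1.09 to 1.53, Gap43 1.09 to 1.43, Ina 1.09 to 1.32, and Dcx and Map2 0.99 to 1.13. For the same relative unevenness between cells, this ratio rises with the mean count and stays near 1 for sparse genes. Dcx had a mean of 0.0155 to 0.0394 UMIs per thinned cell and Stmn2 0.14 to 0.467. Dcx and Map2 can therefore not be ranked against Stmn2 by it. Pairs of the 7 genes were weakly correlated across thinned cells, which limits any such value at this depth: the highest Pearson r of any pair in any library was 0.21, for Stmn2 with Tubb3 (0.08 to 0.21 over the libraries), and Gap43 with Elavl4 gave 0.02 to 0.19. The median tumour cell had a UMI of 2 of the 7 genes in every library, and 5.01% to 9.35% of cells had none.

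The uneven spread of Stmn2 was followed into classes of tumour cells marked by a transcription factor: cells with a UMI of Tfap2a, of En1 or of Isl1, a LIM homeobox factor of motor and sensory neurons, each compared with the other tumour cells of the same library. The class and its complement were summed at 3000 UMIs per cell and fitted in edgeR with the library as a block. Tfap2a cells made up 7.47% and 10.3% of tumour cells in brain, 4.32% to 4.87% in liver, and 18.7%, 3.93% and 4.53% in subcutaneous libraries. Stmn2 was at 23.7 and 26.6 CPM in Tfap2a cells of brain, at 72.4, 67.7 and 84.5 CPM in those of liver, and at 8.49, 37.5 and 35.8 CPM in those of the subcutaneous libraries. In the other tumour cells it was at 116 and 94.5 CPM, at 153, 148 and 159 CPM, and at 55.3, 149.5 and 142 CPM. Tfap2a cells were lower in 8 of 8 libraries, by 1.73 on the log2 scale (SE 0.19, 3.32-fold, adjusted p = 0.000179). The size of this gap differed between the sites, with log2 fold changes of -2.09 in brain, -1.14 in liver and -2.34 in subcutaneous libraries (adjusted p = 0.000114 for the class by site term, which was called for 1.98% of genes). The other tumour cells of subcutaneous replicate 1 were also low in Stmn2, at 55.3 CPM against 94.5 to 159 CPM in the other libraries.

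Elavl4 and Gap43 went the other way in Tfap2a cells. Elavl4 was at 120 to 354 CPM in Tfap2a cells against 61.9 to 174 CPM in the others, higher in 8 of 8 libraries (log2 fold change 0.99, SE 0.06, edgeR adjusted p = 5.86e-17). Gap43 was at 85.1 to 315 CPM against 51.2 to 172 CPM, also higher in 8 of 8 (0.64, SE 0.06, adjusted p = 1.52e-10). Ina was slightly lower (-0.24, SE 0.05, adjusted p = 0.000441, lower in 7 of 8) and so was Tubb3 (-0.17, SE 0.05, adjusted p = 0.0122, lower in 5 of 8). The call of Tubb3 was lost without subcutaneous replicate 2 (-0.13, adjusted p = 0.0518) or subcutaneous replicate 3 (-0.14, adjusted p = 0.0575). The log2 ratios of CPM, which lack the scaling of the fit, were -0.38 to 0.07 for Ina and -0.33 to 0.27 for Tubb3 over the libraries. In a stricter class of at least 2 UMIs of Tfap2a, the calls of Ina (-0.23, adjusted p = 0.481) and Tubb3 (-0.27, adjusted p = 0.261) were both lost. Without subcutaneous replicate 1 the same 5 genes were called, Elavl4 at 1.04, Gap43 at 0.70, Stmn2 at -1.60, Ina at -0.25 and Tubb3 at -0.19. Dcx and Map2 did not pass (0.28 and -0.06). So 5 of 7 were called, 2 higher and 3 lower, where 20.4% of all genes were called, 8.6% higher and 11.8% lower.

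**Figure D4:**
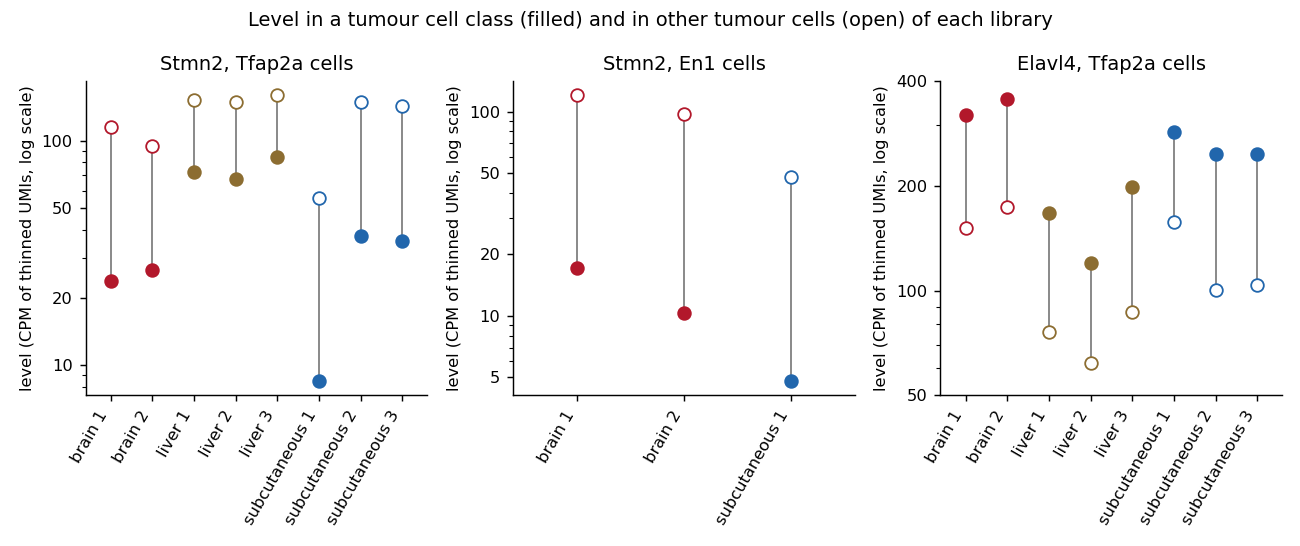
Level in a tumour cell class (filled) and in the other tumour cells (open) of each library, in CPM of thinned UMIs on a log axis, coloured by site. Stmn2 is lower in Tfap2a cells of 8 of 8 libraries and in En1 cells of 3 of 3, and Elavl4 is higher in Tfap2a cells of 8 of 8.

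En1 cells were numerous enough in 3 libraries, at 11.1% and 11.3% of tumour cells in brain and 3.49% in subcutaneous replicate 1, against 0.507% to 0.614% in the others, which were not used. Stmn2 was at 17.3 and 10.3 CPM in En1 cells of brain and at 4.80 CPM in those of subcutaneous replicate 1, where it rested on 2 UMIs. The other tumour cells of these libraries were at 120.2, 97.3 and 48.0 CPM. The gap was 3.08 on the log2 scale (log2 fold change -3.08, SE 0.20, 8.44-fold, edgeR adjusted p = 1.35e-41). With 3 libraries, and the library as a block, the p-values of this class rest largely on a spread shared over genes. Gap43 was lower too, at 82.3, 89.2 and 95.9 CPM against 150.3, 199 and 139.6 CPM (-0.95, SE 0.12, adjusted p = 2.79e-13), unlike in Tfap2a cells. Elavl4 was at 137, 119.5 and 119.9 CPM in En1 cells against 168, 202 and 184 CPM (-0.59, SE 0.11, adjusted p = 1.54e-06), a call lost without brain replicate 2 (-0.48, adjusted p = 0.0754), and Tubb3 at 319 to 487 CPM against 440 to 649 CPM (-0.51, SE 0.09, adjusted p = 9.82e-08). Without subcutaneous replicate 1, in the brain libraries alone, Stmn2 was at -3.06, Gap43 at -1.07, Elavl4 at -0.59 and Tubb3 at -0.53, all called, with the same limit and still fewer libraries. These 4 of 7 were lower in 3 of 3 libraries, beside 25.6% of all genes called, 12.9% higher and 12.7% lower. Dcx was at 18.6, 14.7 and 26.4 CPM in En1 cells against 10.1, 11.3 and 12.7 CPM and did not pass (0.69, adjusted p = 0.0598), though it did without thinning (0.81, adjusted p = 0.00385), while Ina was level (-0.02, SE 0.10). The median depth of En1 cells was 7218 to 7923 UMIs in these libraries, below the 8371 to 9630 UMIs of the other cells, and its part in the result was not tested beyond the equal thinning.

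Isl1 cells, at 1.68% to 4.72% of tumour cells, had more Elavl4 in 8 of 8 libraries, at 75.0 to 385 CPM against 64.5 to 188 CPM (log2 fold change 0.92, SE 0.07, edgeR adjusted p = 2.90e-24). Gap43 was higher in 7 of 8 (0.42, SE 0.08, adjusted p = 5.38e-05), all but liver replicate 1. Both were called with subcutaneous replicate 1 left out, at 0.90 and 0.45. Dcx was called higher as well (0.82, SE 0.27, adjusted p = 0.0459), on 0 to 20 UMIs per library in Isl1 cells and with 5 of 8 libraries in that direction. Its call was lost without brain replicate 2 (0.83, adjusted p = 0.0706), liver replicate 1 (0.81, 0.0997), subcutaneous replicate 1 (0.82, 0.112), subcutaneous replicate 2 (0.35, 0.708) or subcutaneous replicate 3 (0.83, 0.0993). These were 3 of 7, all higher, where 6.52% of all genes were called, 2.35% higher and 4.17% lower. Stmn2 did not pass over all sites (0.48, adjusted p = 0.294), and its difference depended on the site: 0.96 in brain, 0.60 in subcutaneous and -0.25 in liver libraries (adjusted p = 2.38e-06 for the class by site term, called for 1.03% of genes). In Isl1 cells of brain it was at 173 and 209 CPM against 106 and 82.9 CPM in the others, and in liver at 191, 129 and 114 CPM against 148, 145 and 157 CPM.

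**Figure D5:**
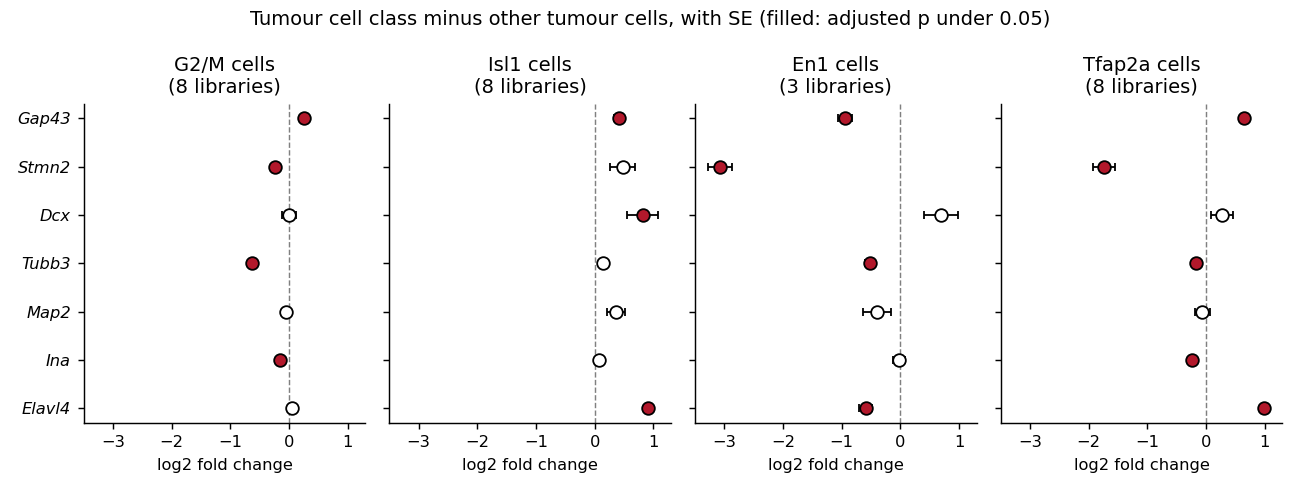
Log2 fold change of each gene in 4 classes of tumour cells against the other tumour cells of the same libraries (x axis) with its SE, filled where the edgeR adjusted p was under 0.05. Stmn2 is at -3.08 in En1 cells and -1.73 in Tfap2a cells, and Elavl4 is at 0.92 and 0.99 in Isl1 and Tfap2a cells but at -0.59 in En1 cells.

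Dividing cells were also set apart: those in which 20 genes of G2 and mitosis had 4 or more UMIs together, called G2/M cells here. They made up 31.8% to 39.6% of tumour cells. Tubb3 was lower in them in 8 of 8 libraries, at 322 to 483 CPM against 490 to 765 CPM (log2 fold change -0.62, SE 0.03, edgeR adjusted p = 6.61e-31). Gap43 was higher in 8 of 8 by a smaller amount (0.25, SE 0.04, adjusted p = 2.74e-07). Stmn2 was lower in 7 of 8 (-0.24, SE 0.04, adjusted p = 2.74e-07) and Ina in 7 of 8 (-0.15, SE 0.03, adjusted p = 2.59e-05). Dcx, Map2 and Elavl4 were at -0.00, -0.05 and 0.05 and did not pass. These are 4 of 7, 1 higher and 3 lower, and 48.6% of all genes were called in this comparison, 21.9% higher and 26.7% lower. With subcutaneous replicate 1 left out the log2 fold changes called were -0.62 for Tubb3, 0.27 for Gap43, -0.24 for Stmn2 and -0.15 for Ina. For Elavl4 the difference depended on the site, at -0.16 in brain, 0.13 in liver and 0.13 in subcutaneous libraries (adjusted p = 0.037 for the class by site term, called for 2.28% of genes). G2/M cells had median depths of 10125 to 11899 UMIs before thinning against 7583 to 10336 UMIs in the others, and the part of depth was not tested beyond the equal thinning. With G2/M cells left out, Gap43 was still called higher in brain than in liver (1.58, adjusted p = 0.00123).

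Cells with any UMI of Tfap2a or En1 before thinning were also left out of the sums, a choice made after the data were seen. This set is wider than the thinned classes above. The step kept 1588 of 2418 and 2313 of 4060 tumour cells in brain. It kept 3484 of 4114, 3661 of 4189 and 4142 of 4720 in liver. In subcutaneous libraries it kept 2273 of 4150, 5701 of 6276 and 4255 of 4792. Gap43 was called in all 3 site comparisons, with log2 fold changes of 1.61 (edgeR adjusted p = 0.000505), 0.86 (0.00894) and -0.75 (0.0211). Elavl4 was higher in brain than in liver (1.06, adjusted p = 0.00292) and was now also called higher than in subcutaneous (0.61, adjusted p = 0.0356). For Stmn2 the same step moved brain against liver from -0.68 to -0.18 (adjusted p = 0.559) and brain against subcutaneous from -0.16 to 0.22 (adjusted p = 0.485).

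Beyond the 7 genes, 129 genes in 7 lists of the same machinery were listed and 127 of them tested. In brain against liver 33 were called (20 higher and 13 lower in brain), or 26.0% of the list beside 21.8% of all genes. In brain against subcutaneous it was 19 (14 higher and 5 lower), or 14.96% beside 15.1%, and in liver against subcutaneous 8 (3 higher and 5 lower), or 6.30% beside 2.83%. These counts depended on single libraries: without subcutaneous replicate 1 they were 49, 56 and 15, and the lowest counts were 15 without brain replicate 2, 4 without brain replicate 1 and 0 without liver replicate 2, in the same order of comparisons. The median log2 fold change of the list was -0.07, -0.01 and 0.01. Genes were selected that had the largest changes of their list among called genes whose libraries did not overlap and whose mean level was 10 CPM or more. This leaves out larger changes of sparser genes. Of those selected, 9 of 24 in brain against liver were called in every alternative, as was 1 of 15 in brain against subcutaneous and 0 of 7 in liver against subcutaneous. Only part of them are described below, mostly genes higher in brain. Among those selected as lower in brain than in liver were Tuba4a (-1.15 to -0.83 over the alternatives), Khdrbs3 (-1.07 to -0.68), Dpysl3 (-0.94 to -0.57) and Camsap3 (-0.92 to -0.63). In liver against subcutaneous, Tubb2a was at -1.76 to -1.40 and Bex1 at 0.53 to 0.71.

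Among 12 tubulin genes tested, 3 were higher and 1 lower in brain against liver. Tubb2b, a beta-tubulin of developing neurons, was at 22.8 and 27.0 CPM in brain, at 3.14, 1.90 and 2.94 CPM in liver and at 9.54, 10.1 and 6.24 CPM in subcutaneous libraries. It was 8.66-fold higher in brain than in liver (log2 fold change 3.11, SE 0.26, edgeR adjusted p = 0.000432), and higher than in subcutaneous by 1.53 (adjusted p = 0.0066), a call lost without brain replicate 2 (1.40, adjusted p = 0.0523). Its near-identical neighbour Tubb2a was at 24.3 and 35.5 CPM, at 4.88, 5.10 and 7.66 CPM, and at 22.0, 18.7 and 14.7 CPM, and was 4.73-fold higher in brain than in liver (2.24, SE 0.24, adjusted p = 0.000978). Reads of these paralogs may have been split in counting. The order brain, subcutaneous, liver held without overlap for both, as for Gap43.

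In the list of microtubule-associated proteins (20 genes), 2 were higher and 3 lower in brain against liver. Mapt, which encodes the axonal protein tau, was at 81.4 and 97.8 CPM in brain, 27.9, 23.4 and 35.1 CPM in liver, and 72.1, 61.6 and 53.2 CPM in subcutaneous libraries (brain against liver 1.53, SE 0.18, edgeR adjusted p = 0.00122). Map7, which recruits kinesin-1 to microtubules, was lower in brain (-0.91, SE 0.13, adjusted p = 0.00256). Of 9 intermediate filament genes tested, 2 were higher and 1 lower in brain, against liver and against subcutaneous alike. Prph, which encodes peripherin of peripheral neurons, was at 163 and 195 CPM in brain against 50.2 to 56.0 CPM in liver and 66.0 to 98.0 CPM in subcutaneous libraries (1.65, SE 0.17, adjusted p = 0.000884 and 1.22, SE 0.17, adjusted p = 0.00423), and both calls held in every alternative, among them without subcutaneous replicate 1 (1.43 in brain against subcutaneous). Krt8, the keratin of simple epithelia, was lower in brain than in liver (-1.15, SE 0.14, adjusted p = 0.00149). The third gene was Gfap, the filament of astrocytes, at 20.3 and 13.8 CPM in brain and 0 to 1.39 CPM elsewhere. It had a UMI in 11.6% of tumour cells in brain and is itself part of the astrocyte sum given above. Of the other astrocyte markers, Slc1a2, Slc1a3, Aqp4 and Gja1 were also higher in both brain libraries than elsewhere. Slc1a3, Aqp4 and Gja1 had a UMI in only 2.73%, 0.803% and 0.772% of brain tumour cells. Aldoc overlapped, at 44.2 and 37.5 CPM in brain against 16.3 to 40.3 CPM. The source of the Gfap UMIs was not tested. Nefl and Nefm, the light and medium neurofilament genes, were looked up after the values were seen and were not called. Nefl was at 21.1 and 36.6 CPM in brain, 15.7 to 17.6 CPM in liver and 36.1, 10.9 and 11.9 CPM in subcutaneous libraries, with subcutaneous replicate 1 again at the level of brain.

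Neuronal RNA-binding proteins (21 genes), the list nearest to Elavl4, had 5 higher and 1 lower in brain against liver. Nova1, a neuronal splicing factor, was at 18.4 and 14.0 CPM in brain and 5.67 to 6.80 CPM in liver (1.21, SE 0.20, edgeR adjusted p = 0.0042), and Celf6 at 34.1 and 32.3 CPM against 16.8 to 20.9 CPM (0.72, SE 0.13, adjusted p = 0.00636). Celf2 was higher by 0.60 (adjusted p = 0.00904), a call lost without brain replicate 2 (0.52, adjusted p = 0.0629). In the growth cone list (28 genes), 4 were higher and 3 lower in brain against liver, and 4 were higher and 0 lower against subcutaneous. Of those selected against subcutaneous, Fez1, a kinesin adaptor of axon outgrowth, changed most (1.35, SE 0.22, adjusted p = 0.00716). That call was lost without brain replicate 2 (1.13, adjusted p = 0.0673). Looked up after the values were seen, Basp1, which like Gap43 encodes a calmodulin-binding growth cone protein, and Stmn1, the widely expressed stathmin, were not called in brain against liver (0.32, adjusted p = 0.183 and 0.05, adjusted p = 0.77). Of 17 axonal motor genes 1 was higher and 3 were lower. Of 20 genes of the actin and spectrin cytoskeleton 3 were higher and 1 was lower, among them Cotl1, an actin-binding protein also abundant in myeloid cells (1.21, SE 0.16, adjusted p = 0.00177). Cotl1 fell to 0.69 (adjusted p = 0.0112) with the tumour cells that held a host marker UMI left out. That step kept only 305 of 2418 tumour cells in brain replicate 1.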

How the data were processed

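Single-cell RNA sequencing counts of 8 allografts were used as deposited: UMI counts per gene and cell, made with Cell Ranger and STAR on mm10, per the submitters' processing notes, and matrix software version 3.0.0, per the file headers. The lowest deposited cell had 501 UMIs. No doublet caller was run. Of the deposited cells 36797 passed a minimum of 500 genes and a maximum of 10% of UMIs from mitochondrial genes, and tumour cells were those with at least 0.2% of UMIs from eGFP and Mycl.

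UMIs were summed per library over tumour cells and tested with edgeR 4.0.16 (TMM, its filter on low counts, quasi-likelihood, R 4.3.3), with 1 mean per site over all 8 libraries, Benjamini-Hochberg adjustment over 13931 genes and a threshold of 0.05. The standard error is the fold change over the root of F. Genes not tested held 0.0133% of UMIs. The residual degrees of freedom of this site fit were 5, and the class fits had their own. Each fit moderates the spread of a gene toward that of all genes, and the smallest p-values of the class fits rest largely on this. Tumour cell classes (at least 1 UMI of Isl1, En1 or Tfap2a, or 4 UMIs over the G2/M genes, after thinning to 3000 UMIs, with at least 50 cells per library) were compared within libraries. Their fold changes are scaled by TMM, while the counts of libraries with a class higher or lower compare CPM without it. The class fits were not run with another scaling. Intervals on shares of cells are exact (Clopper-Pearson, 95%) and cover counting error only. Host marker cells were those with a UMI of any of 36 of 41 markers. The rest were detected in at least 5% of tumour cells at every site and were not used for this.

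The 7 genes, the gene lists, the cell classes and the motifs were chosen with earlier results of these data known. From the lists, up to 3 genes per list, direction and comparison were selected: the called genes that changed most, given no overlap of libraries and a mean level of 10 CPM or more. Only part of them are described above. The genes most like a member were the 2 with the highest Pearson r of log2(CPM + 1) with a mean of at least 10 CPM. The class by site terms and the fit without Tfap2a and En1 cells (any UMI before thinning) were added after the data were seen. Alternatives were DESeq2 1.42.0, other scalings and filters, other tumour cell rules, a replicate block and each library left out. Gene positions are from GENCODE M21 (GRCm38), where 21952 of 22056 genes were found, and promoter windows from RefSeq (GRCm38.p6). The tests were also run on simulated counts, drawn with the same spread for every gene and with no library set apart. They therefore do not check the calls that depend on subcutaneous replicate 1. Figures were drawn with matplotlib 3.10.9.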

Additional observations from a re-analysis of the deposited data

Results flagged for a closer look

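Among 21 sets of 8 log2 ratios (each gene in the G2/M, Isl1 and Tfap2a classes) tested for a library far from the rest, 1 was found, and chance gives about 1 in 20. The Gap43 ratio of Isl1 cells to other tumour cells was -0.2992 in liver replicate 1 and 0.3687 to 0.7856 in the other 7 libraries; it rested on 9 UMIs of Gap43 in the Isl1 cells of that library.

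The difference between a cell class and the other tumour cells varied with the site for 3 gene and class pairs, by the class by site term in edgeR. These were Stmn2 in Isl1 cells (adjusted p = 2.38e-06), higher than the other cells in all brain and subcutaneous libraries and in liver replicate 1 but lower in the other 2 liver libraries, Stmn2 in Tfap2a cells (adjusted p = 0.000114), with the smallest gap in liver, and Elavl4 in G2/M cells (adjusted p = 0.037), with a negative value in brain and positive values in liver and subcutaneous libraries. These terms were not refitted without subcutaneous replicate 1.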

How the results depend on the processing

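Of the alternative values of the 7 genes' called results, 197 kept direction and call and 32 lost the call; of the uncalled ones, 451 stayed uncalled, 15 were called and 23 changed sign. The cause of these changes was not tested. With each library left out in turn, 1 to 3 of the 7 genes were called in brain against liver, 0 to 5 in brain against subcutaneous, 0 to 2 in liver against subcutaneous and 4 to 5 in Tfap2a cells. The listed cytoskeleton genes called were 15 to 49, 4 to 56 and 0 to 15, and all genes called were 1112 to 4557, 383 to 4754 and 33 to 1024, with the highest count of each without subcutaneous replicate 1. Depth limits Dcx in particular, which had 196 to 476 UMIs per library.

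In brain against subcutaneous, 0 members were called with only the sites compared, with the replicate block or with tumour cells defined by an eGFP UMI, and 2 with Tfap2a and En1 cells left out. In liver against subcutaneous, 0 were called with only the sites compared, the replicate block, the 0.1% tumour cell rule or the eGFP rule. The stricter Tfap2a class gave 3 called members, with Ina and Tubb3 lost, and a stricter Isl1 class could not be fitted (under 50 cells per library). Genes of at least 10 CPM gave 1244, 849 and 227 calls over all genes in the 3 comparisons, and 21 among the listed genes in brain against liver. All-gene calls in brain against subcutaneous were 728 with only the sites compared and 1378 with the replicate block. In liver against subcutaneous they were 1055 with DESeq2, 713 with library size only, 229 with the replicate block and 233 with the eGFP rule. Listed genes called were 33 with DESeq2, 8 with only the sites compared and 29 at the 0.5% rule in brain against subcutaneous, and 16 with DESeq2 in liver against subcutaneous.

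Scaling by library size only moved the median of all genes to 0.12 in brain against liver and -0.12 in liver against subcutaneous, and the share of calls that were higher from 60.7% to 76.5% and from 33.0% to 15.7%. Gap43 in brain against liver, less that median, stayed at 1.48.

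Values that changed sign belonged to uncalled results. Ina in brain against liver was 0.000467 and Tubb3 in liver against subcutaneous -0.0407 with library size only. Stmn2 in brain against subcutaneous was 0.0263 with the replicate block, 0.0032 without host marker cells and 0.22 without Tfap2a and En1 cells. Dcx in liver against subcutaneous was 0.0908 at the 0.5% rule and 0.00903 without Tfap2a and En1 cells. In G2/M cells Dcx was 0.0696 in the stricter class and Map2 0.0307 without thinning, and without thinning Ina was 0.0998 in En1 cells and Map2 0.0260 in Tfap2a cells. With each library left out, the ranges were -0.0633 to 0.246 for Tubb3 in brain against liver, -0.506 to 0.111 for Stmn2 in brain against subcutaneous, -0.215 to 0.292 for Dcx and -0.0909 to 0.222 for Tubb3 in liver against subcutaneous, -0.120 to 0.115 for Dcx in G2/M cells, -0.0581 to 0.0232 for Ina in En1 cells and -0.161 to 0.0137 for Map2 in Tfap2a cells.

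Whether the replicate numbers pair the libraries could not be decided, since deviations from a site mean cancel within the site. Those of the brain libraries mirror each other, so the same-numbered pairs are not separate tests. The deviations correlated over 0.1 in 4 of 7 same-numbered pairs (-0.110 to 0.345, 7942 genes), and 6 of 8 libraries correlated best with their own number. Map2 in brain against liver was called with the replicate block alone (-0.42, edgeR adjusted p = 0.0463).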
